A study of Mus musculus with 2 samples.

Results

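The adenylyl cyclases, the enzymes that make cyclic AMP from ATP, are encoded in the mouse by the genes Adcy1 to Adcy10. All 10 were found by their symbols in the transcript tables and joined by gene identifier to the gene tables of both hearts, so 10 of 55536 listed genes are described here. RNA was measured in whole hearts of 1 group of animals, male B6CASTF1/J mice aged 36 days. These are F1 animals of a B6 by CAST strain cross, and the labels name for them no engineered allele and no treatment. The group has 2 biological replicates, called heart 1 and heart 2, which are separate biosamples under the same donor entry. The sources used here do not say if the donor entry means 1 animal, so the spread between the hearts may be partly technical. The design holds no second condition, and the questions it allows are how much of each cyclase the heart holds, in which transcripts, and how closely the hearts repeat each other. The tables do not separate the B6 and CAST alleles. In a whole tissue, fewer cells of a type and less RNA per cell cannot be told apart.

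Most adenylyl cyclases are membrane enzymes with paired catalytic domains, C1 and C2, which meet to form the active site. They are switched on by the stimulatory G protein alpha subunit after a hormone such as adrenaline binds its receptor, and the isoforms differ in how calcium, calmodulin, inhibitory G proteins and G protein beta and gamma subunits act on them. Cyclic AMP then activates protein kinase A, which in heart muscle speeds and strengthens the beat, and Adcy5 and Adcy6 are known as the main cardiac isoforms. Adcy10 stands apart as a soluble enzyme that responds to bicarbonate and is best known from sperm.

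The stretch of coding sequence that is most alike across the 9 membrane cyclases is shown first, because it displays what the family shares and where its members part. It spans 30 codons of the C2 domain and includes the asparagine and the arginine of that domain that take part in catalysis. Lines give the 4 most abundant members on mm10, 5′ to 3′ on the coding strand, from GENCODE M21 transcripts. Capitals mark the 18 codons that encode the same residue in all 9.
Adcy6, exon 21 of Adcy6-201, minus strand, chr15:98592691-98592780: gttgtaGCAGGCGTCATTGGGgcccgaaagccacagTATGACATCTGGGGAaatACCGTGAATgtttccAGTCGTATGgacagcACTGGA
Adcy5, exon 20 of Adcy5-201, plus strand, chr16:35302284-35302373: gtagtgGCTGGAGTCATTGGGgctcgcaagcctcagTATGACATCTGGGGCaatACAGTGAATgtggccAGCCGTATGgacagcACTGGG
Adcy9, exon 11 of Adcy9-202, minus strand, chr16:4288357-4288446: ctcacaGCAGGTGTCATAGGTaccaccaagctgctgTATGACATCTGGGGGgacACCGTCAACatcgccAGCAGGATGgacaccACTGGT
Adcy4, exon 25 of Adcy4-202, minus strand, chr14:55769391-55769480: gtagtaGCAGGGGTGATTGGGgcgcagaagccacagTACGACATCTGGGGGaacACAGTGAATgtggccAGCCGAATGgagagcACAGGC

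Over these 90 bases Adcy6 and Adcy5 differed at 13 bases, and 1 of their 30 codons encoded another residue. Adcy6 and Adcy4 differed at 17 bases and in 3 residues. Adcy6 and Adcy9 differed at 27 bases and in 10 residues. For these pairs the order of the differences is that of the whole proteins, but it does not hold for every member. Adcy6 and Adcy8 differed at 22 bases and in 4 residues of the window. Their whole proteins shared 43.8% of aligned residues, against 42.2% for Adcy6 and Adcy4. Translated from their longest complete coding transcripts, Adcy5 (1262 residues) and Adcy6 (1168 residues) shared 68.6% of aligned residues, the highest of the 36 pairs of membrane cyclases (lowest 31.6%, median 40.5%). Adcy2, Adcy4 and Adcy7, the isoforms known to be stimulated by beta and gamma subunits, came next at 54.5% to 58.7% between one another. Adcy9, known for its weak response to the plant compound forskolin, shared 31.6% to 35.9% with the others. Adcy10 was aligned with them over only 9 to 218 residues. Unaligned ends cost nothing in these alignments, so the spans do not measure how much of Adcy10 is related to the others.

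**Figure D1:**
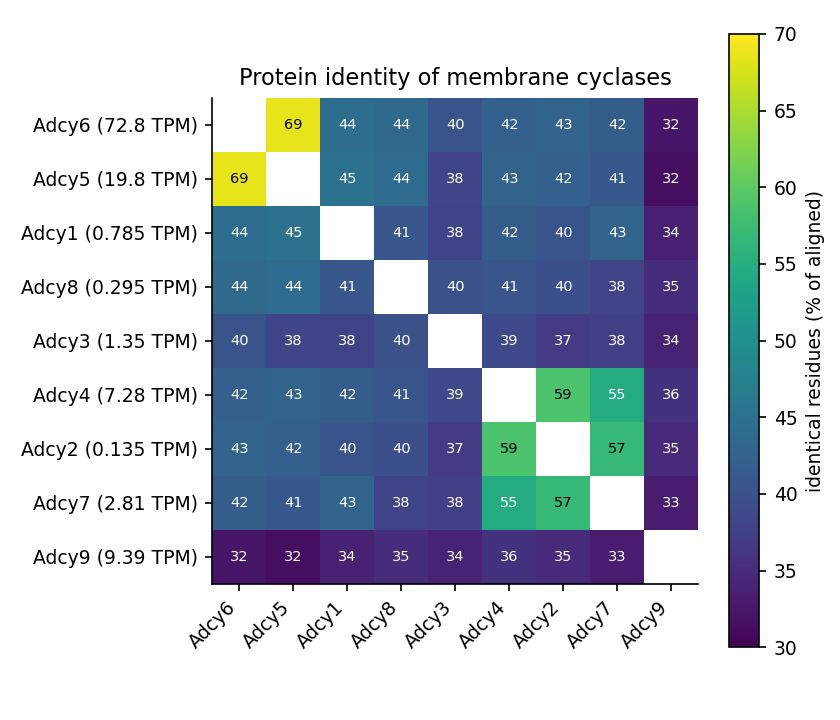
Percent of aligned residues that are identical between each pair of the 9 membrane adenylyl cyclases, written in each cell and coloured from 30 to 70%, with the gene's mean level in TPM beside its row name. The brightest cell is the pair Adcy5 and Adcy6, at 68.6%, which are also the members of highest level, while Adcy2, in the next closest group, stands at 0.135 TPM.

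Sequence likeness reached RNA reads only to a small degree. Of the stretches of 31 bases that occur in a member's transcripts, 0 to 7 per member also occurred in another cyclase, and at most 0.44% occurred on the same strand of any other gene. Counts of the members are therefore little exposed to being shared between near-identical copies. Reads from the opposite strand are another matter for Adcy3. Adcy3 and Cenpo, a centromere protein gene, overlap on opposite strands over 1380 exonic bases, and 20.1% of Adcy3's stretches occur in reverse in another gene. Cenpo held 59 and 52 expected counts in hearts 1 and 2. The spike-in label names stranded libraries, but the sources used here do not say whether counting used strand, so the value of Adcy3 is uncertain by that overlap. Adcy6 and Adcy2 also share exonic bases (605 and 189) with antisense genes, Gm29331 and Gm35161, and both of these were listed at 0 counts in both hearts.

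Levels are given in TPM, a per-length unit of transcript abundance in which genes can be set against each other, from the first of the authors' 2 quantifications unless the second is named. The heart held 6 of the 10 cyclases at 1 TPM or more in both replicates, a share to be read beside the 49.7% of 22015 nuclear protein-coding genes that met the same rule. The family summed to 109.3 TPM in heart 1 and 120.1 TPM in heart 2, with a mean of 114.7 ± 7.62 (SD, n = 2 here and throughout). Adcy6 held 63.4% ± 0.297 of that sum and Adcy5 17.3% ± 0.658, so the closely related pair made up 80.7% ± 0.955. Adcy9 followed with 8.20% ± 0.434 and Adcy4 with 6.34% ± 0.146. The other 6 members together held 5.22% in heart 1 and 4.27% in heart 2. These SDs cover the spread of the hearts only, and the shares depend on which transcripts are counted. On transcripts with a complete coding sequence, Adcy6 held 43.4% and Adcy5 28.1% of the family. In the second quantification these were 52.2% and 23.0%.

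**Figure D2:**
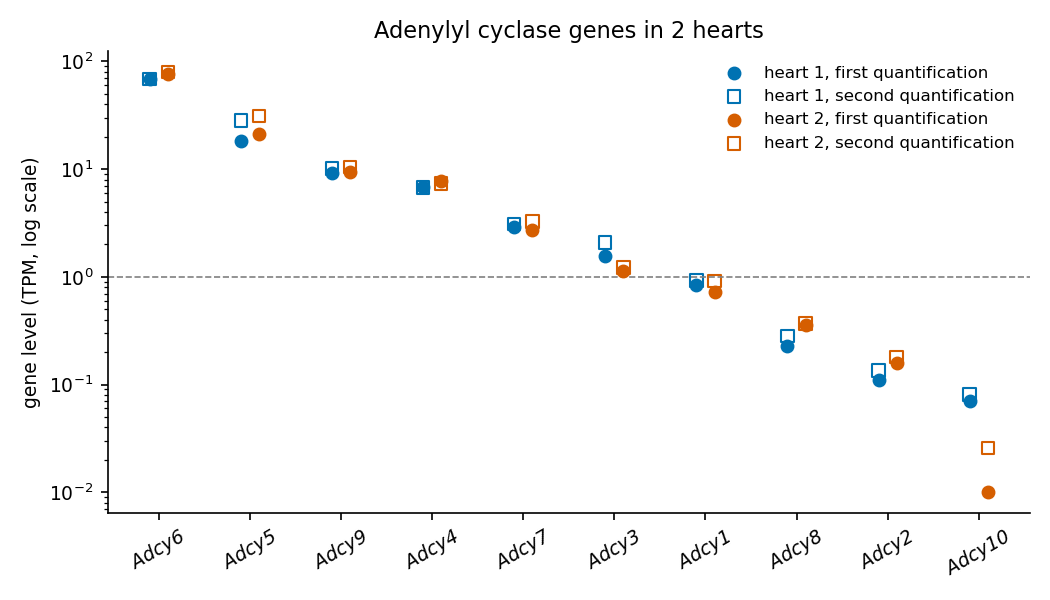
Gene level in TPM on a log axis for the 10 adenylyl cyclases in heart 1 (blue) and heart 2 (orange), as filled circles for the first quantification and open squares for the second, with the 1 TPM line dashed. Adcy6 lies at 69.1 and 76.4 TPM and Adcy10 at 0.07 and 0.01 TPM in the first quantification, and the order of the members is the same in both quantifications.

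Adcy6 (chr15:98589973-98610076, minus strand), stimulated by the stimulatory G protein and inhibited by calcium and inhibitory G proteins, stood at 69.1 TPM in heart 1 and 76.4 TPM in heart 2. It ranked 750 among the nuclear protein-coding genes by mean TPM. Adcy5 (chr16:35154877-35305738, plus strand), regulated in much the same way, stood at 18.4 and 21.3 TPM and ranked 2821. Both were higher in heart 2, and the ranges of the pair lay far apart. The ratio of Adcy6 to Adcy5 was 3.76 in heart 1 and 3.59 in heart 2 on this scale.

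Adcy9 (chr16:4287529-4420498, minus strand), which binds the anchoring protein Akap9 in complexes with a cardiac potassium channel, stood at 9.30 and 9.48 TPM. Adcy4 (chr14:55769057-55784095, minus strand), of the group stimulated by beta and gamma subunits, stood at 6.82 and 7.74 TPM. These are the closest neighbours among the detected members relative to their level: 2.11 TPM separated their means, against a larger SD of 0.651 TPM, and their ranges did not overlap. Adcy7 (chr8:88272403-88329962, plus strand), of the same group as Adcy4 and known from blood and immune cells, stood at 2.88 and 2.74 TPM. Adcy2 (chr13:68620043-68999541, minus strand), the remaining member of that group and known from brain, was near the bottom of the range at 0.11 and 0.16 TPM. The group thus ran from 7.28 TPM for Adcy4 to 0.135 TPM for Adcy2 as means, although its proteins are alike.

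The isoforms that calmodulin can stimulate were all low. Adcy3 (chr12:4133103-4213525, plus strand), known from olfactory cilia and also from fat, stood at 1.57 TPM in heart 1 and 1.13 TPM in heart 2. Adcy1 (chr11:7063489-7178506, plus strand), known from neurons, stood at 0.84 and 0.73 TPM. Adcy8 (chr15:64697084-64922296, minus strand), known from brain and from pacemaker cells of the heart, stood at 0.23 and 0.36 TPM. Adcy3 alone of these passed 1 TPM in both hearts. Adcy1 shows why levels need the length: it held 345 and 301 expected counts, more than the 236 and 177 of Adcy3, but its transcript is 12259 nt long and its TPM was the lower of the pair.

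Adcy10 (chr1:165485183-165576774, plus strand), the soluble cyclase, closed the order at 0.07 and 0.01 TPM, from 7 and 1 expected counts. The value of heart 2 lies within the 3 counts that a count of 0 allows, 0.0706 CPM. None of its counts in the first quantification fell on a complete coding transcript. In the order of all 10 members no pair of neighbours had overlapping ranges over the hearts, in either quantification. Restricted to complete coding transcripts, Adcy8 and Adcy2 did overlap.

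No cyclase with enough counts differed 2-fold between the hearts. With 2 hearts the smallest p of an exact sign permutation is 0.5, so no test was made and differences are read by a rule of size: at least 50 expected counts on average and at least a 2-fold ratio after TMM scaling. Intervals are exact 95% Clopper-Pearson intervals on the 2 counts and cover counting error only, not variation between hearts. Without molecular identifiers some reads may be copies of 1 molecule, which the intervals do not allow for. Of the 10 cyclases, 8 reached a mean of 50 counts, and 0 of these passed 2-fold, where 1.28% of 12541 genes did. A count of 0 in 8 is near that share and is not particular to the cyclases. 4 of the 8 were higher in heart 2 and 4 in heart 1. Their median log2 ratio of heart 2 over heart 1 was 0.019, against 0.00051 for all genes with 50 counts. The median size of the log2 ratio was 0.16 for the cyclases and 0.11 for all these genes.

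Adcy6 held 8197 expected counts in heart 1 and 9517 in heart 2, a log2 ratio of 0.17 (interval 0.13 to 0.21). Adcy5 held 4272 and 4893 counts, a log2 ratio of 0.15 (0.09 to 0.21). Both cardiac isoforms were thus slightly higher in heart 2, as were the cardiomyocyte markers, 7 of 7 detected, whose median log2 ratio was 0.09. Atrial muscle markers went the other way: 4 of 4 had a log2 ratio below 0, with a median of -0.47, from Nppa at -0.02, within counting error, to Myl7 at -0.50. The part of muscle RNA in this difference was not tested. Adcy9, with 1437 and 1470 counts, had a log2 ratio of -0.01, and Adcy4, with 701 and 749 counts, one of 0.05. Adcy7 held 505 and 484 counts, a log2 ratio of -0.11. These 3 lie within their counting error.

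Adcy3 had the largest difference among the detected members, at 236 counts in heart 1 and 177 in heart 2, a log2 ratio of -0.46 (-0.75 to -0.17). Adcy1 had a log2 ratio of -0.24 (-0.47 to -0.015). The intervals of 4 of the 8 members, Adcy1, Adcy3, Adcy5 and Adcy6, did not hold 0, beside 32.3% of all genes, a share that grows with depth and says only that counting error is smaller than the gap. Adcy8, with 45 and 65 counts, had a log2 ratio of 0.48 (-0.085 to 1.07), within counting error. Under 50 counts lay Adcy2, with 15 and 22 counts and a log2 ratio of 0.48 (-0.50 to 1.56), and Adcy10, with a log2 ratio of -2.03 (-8.35 to 0.11). The intervals of these last members hold both 0 and a 2-fold difference, so a difference of that size is neither shown nor excluded.

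**Figure D3:**
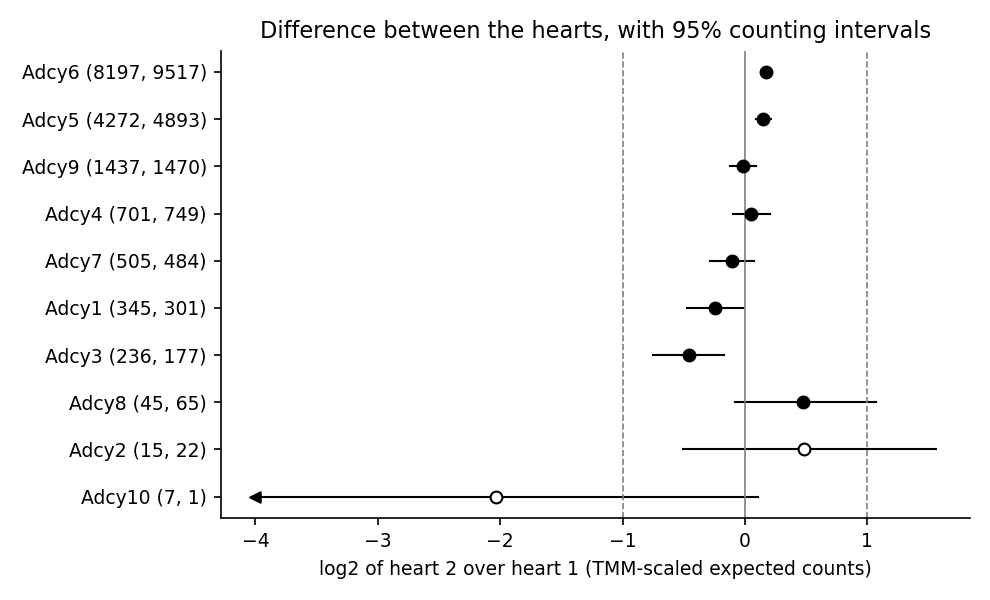
Log2 ratio of heart 2 over heart 1 for each adenylyl cyclase, with 95% counting intervals as lines and the expected counts of heart 1 and heart 2 in brackets. Filled points have a mean of 50 counts or more and lie between the dashed 2-fold lines, open points (Adcy2 and Adcy10) have fewer, and the arrow marks an interval that runs on to -8.35.

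The level of Adcy6 rests on how its reads are spread over transcripts. The annotation lists 48 transcripts for the family, of which 23 are complete coding transcripts, that is, protein-coding with both ends of the coding sequence present. Adcy6 has 7 transcripts, 2 of them complete. The longest, Adcy6-201 (6038 nt), held 17.6 TPM in heart 1 and 22.2 TPM in heart 2, and Adcy6-205 (3707 nt) held 10.1 and 11.0 TPM. Adcy6-204, a fragment of 612 nt whose coding sequence is cut short in the first coding exon, was given 17.7 TPM in both hearts. Adcy6-202, a retained-intron transcript of 3963 nt over the 3′ end of the gene, held 17.5 and 19.6 TPM, and Adcy6-207, annotated for nonsense-mediated decay, 6.13 and 5.89 TPM.

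Counts and TPM ranked these transcripts differently. The coding transcripts that are cut short held 307 and 306 expected counts, 3.75% and 3.22% of Adcy6's counts, but 25.8% and 23.1% of its TPM, because TPM divides by length. The complete coding transcripts held 57.7% and 60.9% of the counts and 39.97% and 43.5% of the TPM. Most of the sequence of these transcripts is also part of Adcy6-201: 95.3% of the bases of Adcy6-204, 92.5% of Adcy6-202 and 97.8% of Adcy6-207. The second quantification, which was made from the reads and an index, split the same gene otherwise. It gave Adcy6-204 0 TPM in both hearts, and put 15.7 and 20.9 TPM on Adcy6-203, a fragment of 425 nt that had 0.11 and 0 TPM in the first. It raised Adcy6-201 to 33.7 and 39.6 TPM.

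**Figure D4:**
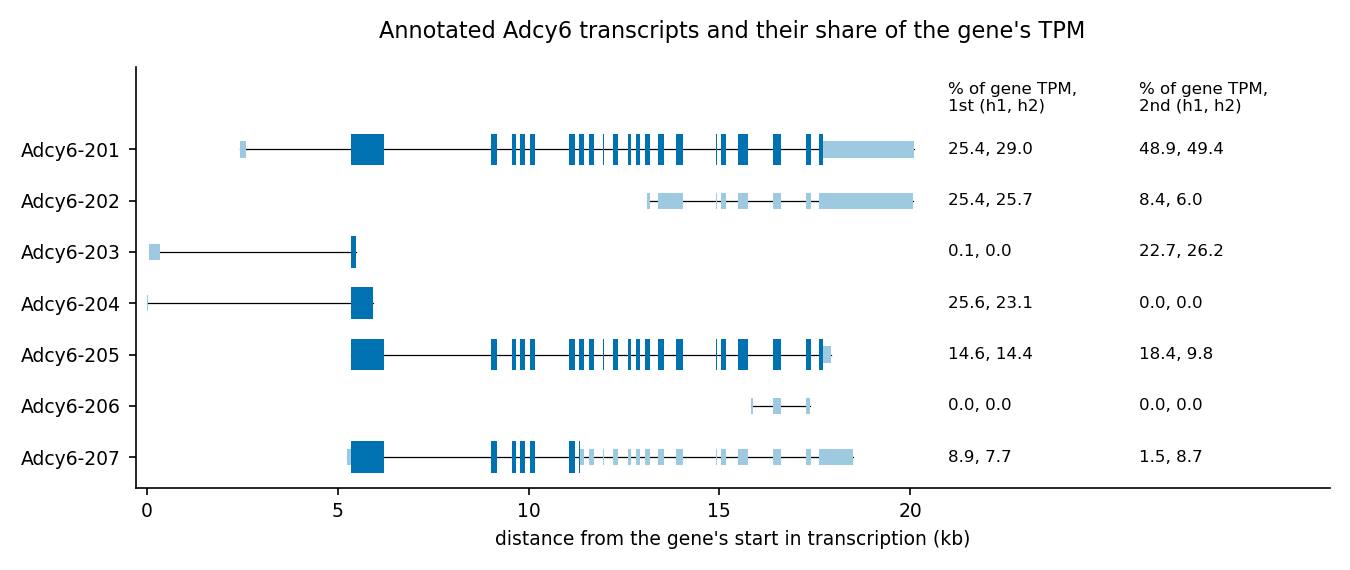
Exons of the 7 annotated Adcy6 transcripts by distance from the gene's start in kb, drawn to scale, with coding parts as tall dark boxes and other exonic parts as low light boxes. Numbers at the right give each transcript's percent of the gene's TPM in heart 1 and heart 2, by the first and by the second quantification: Adcy6-204 moves from 25.6% and 23.1% to 0%, and Adcy6-203 from 0.15% and 0% to 22.7% and 26.2%.

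The same choice sets how far Adcy6 stands above Adcy5. Adcy5 has 1 complete coding transcript, Adcy5-201 (7008 nt), which held 18.4 and 20.9 TPM, 100% and 98.3% of the gene. Its retained-intron fragment Adcy5-202 (374 nt) held 0 and 0.36 TPM in the first quantification and 8.72 and 9.07 TPM in the second, from about 28 estimated counts in each heart. On gene TPM, Adcy6 exceeded Adcy5 by 3.67-fold ± 0.12. On complete coding transcripts it did so by 1.54-fold ± 0.059 in the first quantification, at 27.6 and 33.2 TPM against 18.4 and 20.9 TPM, and by 2.27-fold ± 0.16 in the second. On expected counts per kb of the longest coding transcript the ratio was 2.24 ± 0.022. Adcy6-201 alone stood at 1.01 ± 0.074 times Adcy5-201 in the first quantification, where heart 1 lay below 1 (0.955) and heart 2 above it (1.06), and at 1.77 ± 0.050 times in the second. Adcy6 was thus above Adcy5 in both hearts by gene and by complete coding transcripts, and the size of the gap depended on which transcripts were counted.

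**Figure D5:**
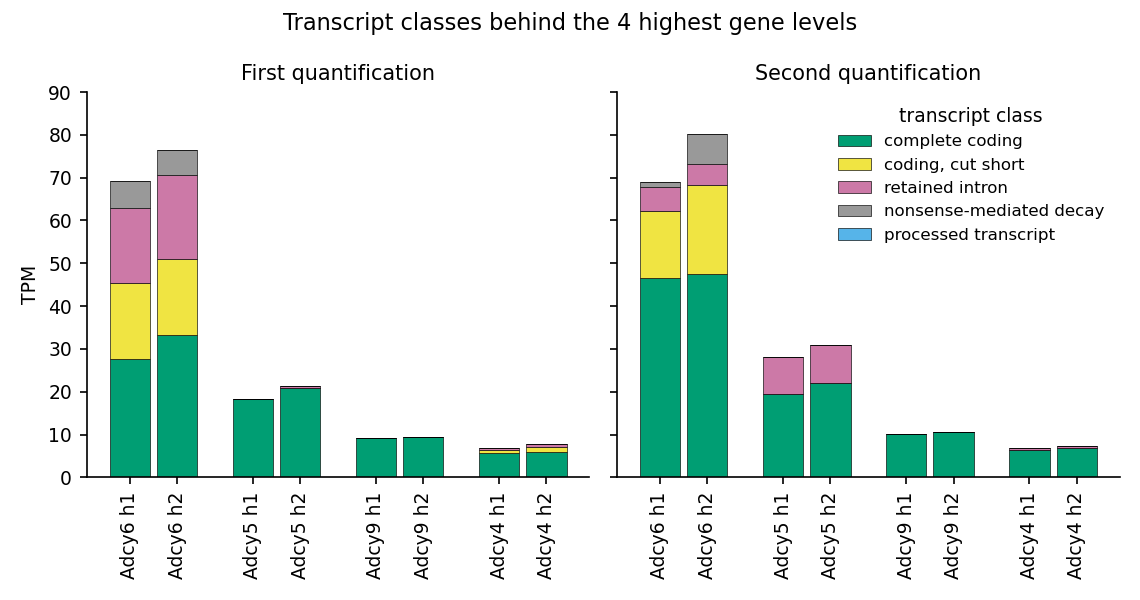
TPM of Adcy6, Adcy5, Adcy9 and Adcy4 in heart 1 (h1) and heart 2 (h2), stacked by annotated transcript class, in the first quantification (left) and the second (right). Complete coding transcripts (green) make up 27.6 and 33.2 TPM of Adcy6 at left and 46.5 and 47.4 TPM at right, while the retained-intron part of Adcy5 is 0 and 0.36 TPM at left and 8.72 and 9.07 TPM at right.

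The complete coding transcripts of the family encode 15 coding forms, that is, distinct sets of coding intervals: 5 members have 1 form and 5 have 2. The forms of Adcy6, Adcy6-201 and Adcy6-205, differ in 6 in-frame bases at the 3′ end of exon 5, shown here because no other coding base separates them. The line runs across the junction of exons 5 and 6 of Adcy6-201 and its capitals mark the extra bases, at chr15:98600172-98600177.
Adcy6-201, minus strand, chr15:98600016-98600189 without the intron: aagctggctgcgGTGAGGgagaatcactgt

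The form with the extra bases held 3508 and 4454 expected counts and the form without them 1222 and 1345. In TPM, which allows for length, the gap was smaller, at 17.6 and 22.2 against 10.1 and 11.0. Adcy6-207, annotated for nonsense-mediated decay, also lacks the 6 bases and held a further 6.13 and 5.89 TPM. The second quantification gave Adcy6-201 33.7 and 39.6 TPM, Adcy6-205 12.7 and 7.85 TPM and Adcy6-207 1.04 and 6.96 TPM. Adcy6-201 thus held more counts and TPM than Adcy6-205 in both hearts, but the size of the gap differed between the quantifications. The transcripts also differ in their noncoding ends, so these values do not rest on the 6 bases alone.

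For other members, summing by coding form removed most of the disagreement over transcripts. Adcy9-201 and Adcy9-202 encode the same 1353 residues and differ outside the coding sequence. The first quantification put 60.6% and 61.1% of Adcy9 on Adcy9-202 and the second 12.1% and 0.53%, but the form they share held 5.63 and 5.79 TPM in the first and 5.50 and 6.02 TPM in the second. The shorter form, Adcy9-203, encodes 1116 residues, 237 fewer, and was not aligned with the longer one. It held 3.66 and 3.68 TPM in the first and 4.65 and 4.50 TPM in the second. Each quantification thus gave both forms of Adcy9 similar levels in the hearts. These are estimates that share out reads, and reads particular to either form were not examined.

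Adcy7 has 4 complete transcripts with 1 coding form, which held 2.43 and 2.42 TPM, although Adcy7-202 alone ran from 44.98% of the gene in heart 1 to 66.9% in heart 2. Adcy4-201 and Adcy4-202 likewise share 1 form, at 5.73 and 5.89 TPM, while Adcy4-202 alone held 63.9% of the gene in heart 1 and 44.9% in heart 2. Within Adcy3 the forms differ in length by 1 codon, and their levels are estimates that share out reads. The form of Adcy3-202 and Adcy3-207 (1144 residues) held 1.01 TPM in heart 1 and 0.61 TPM in heart 2, and that of Adcy3-201 and Adcy3-204 (1145 residues) held 0.39 and 0.43 TPM. The gap between the forms was thus smaller in heart 2. The second quantification gave the shorter form 1.17 and 0.67 TPM and the longer 0.34 and 0.46 TPM, and it also put 0.48 TPM in heart 1 and 0 in heart 2 on the retained-intron transcript Adcy3-203.

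Both quantifications, made from the same libraries, placed the coding counts of Adcy8 on a different form in each heart. Adcy8-201, which encodes 1249 residues, held 33.8 expected counts in heart 1 and 0 in heart 2. Adcy8-202, which has 1 exon and 30 residues fewer, held 0 in heart 1 and 38.8 in heart 2. The second quantification gave 38.7 and 0 estimated counts to the longer form and 0 and 46.1 to the shorter. These are estimates that share out few reads, on a gene whose intron-retaining transcript Adcy8-203 held a further 11.2 and 26.2 counts. A change of form between the hearts was not tested. Over all members the main transcript, the one with the highest percent of the gene's TPM, was the same in both hearts for 7 of 10 in the first quantification and for 5 in the second. It was 1 and the same in both hearts and both quantifications for 4: Adcy1, Adcy2, Adcy4 and Adcy5.

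The other genes of the pathway were described from lists of its parts. Of 80 genes, 62 were detected at 1 TPM or more in both hearts, where 49.7% of nuclear protein-coding genes were. That share also stands beside the detected counts of each list below. A mean of 50 counts was reached by 66 genes, with a median log2 ratio of -0.0037. Of these 66, 1 was 2-fold or more higher in heart 1, where 1.00% of all genes were, and 0 were higher in heart 2, where 0.279% were. A count of 1 in 66 is near the 1.28% of all genes past the rule.

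Upstream of the cyclases, the stimulatory alpha subunit Gnas stood at 457 and 432 TPM, well above any cyclase. Its chaperone Ric8b stood at 11.9 and 13.1 TPM, while Gnal, the olfactory alpha subunit, held only 5 and 9 expected counts. Among inhibitory subunits Gnai2 was highest at 95.2 and 95.5 TPM, followed by Gnao1 at 9.55 and 9.82 TPM and the chaperone Ric8a at 8.66 and 8.25 TPM. Of the beta and gamma subunits, 10 of 15 were detected, led by Gnb2 at 92.4 and 91.6 TPM, Gng5 at 85.2 and 90.7 TPM and Gnb1 at 68.5 and 68.9 TPM. Of the list of calmodulin genes and other regulators of cyclases, 10 of 12 were detected. Among them were the calmodulin gene Calm3 at 70.5 and 67.1 TPM and the kinase Camk2d at 51.7 and 54.1 TPM. Calm3 thus stood far above each of the cyclases that calmodulin stimulates.

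Downstream, protein kinase A was led by its regulatory subunit Prkar1a at 130 and 119 TPM, its catalytic subunit Prkaca at 127 and 133 TPM and the kinase inhibitor Pkia at 79.6 and 93.3 TPM. The member past the 2-fold rule was here: Prkar2b, the regulatory subunit known as the main form in fat, held 558 counts in heart 1 and 90 in heart 2, or 6.65 and 0.92 TPM, a log2 ratio of -2.66 (-3.01 to -2.35). Markers of fat cells moved with it. The adipocyte list summed to 75.5 TPM in heart 1 and 8.28 TPM in heart 2. Of its 5 members with 50 counts, 5 were 2-fold or more higher in heart 1, where 1.00% of all genes were. Among them were Ucp1 at 31.6 and 0.89 TPM, Cfd at 14.5 and 4.28 TPM and Plin1 at 11.4 and 0.81 TPM. None of the 6 adipocyte markers was at 0 counts in both hearts. Adcy3, also higher in heart 1, moved in that direction to a lesser degree. The part of fat RNA in either difference was not tested.

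Among the other effectors of cyclic AMP, Popdc2, a membrane protein of heart muscle that binds it, stood at 164 and 190 TPM, above its relatives Bves at 12.3 and 12.9 TPM and Popdc3 at 9.59 and 11.5 TPM. Of the 18 genes listed as anchoring proteins for protein kinase A, 14 were detected. The highest were Mybpc3 at 559 and 636 TPM, Cmya5 at 102 and 113 TPM and the mitochondrial anchor Akap1 at 47.8 and 51.5 TPM. Mybpc3 is a sarcomere protein, and its place in the list as an anchor was not tested. Of the genes listed as CREB family factors, which include coactivators, 8 of 8 were detected. Atf1 at 18.7 and 15.0 TPM, Ep300 at 16.1 and 16.7 TPM and Crebbp at 16.5 and 15.8 TPM were highest.

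The tissue label was checked against markers. Cardiomyocyte markers summed to 27182 and 29800 TPM, led by Myh6, Myl2 and Actc1, and 7 of 7 were detected. Endothelial markers summed to 592 and 593 TPM, fibroblast markers to 444 and 387 TPM, pericyte and smooth muscle markers to 306 and 319 TPM, and macrophage markers to 63.2 and 61.8 TPM, so the 10 cyclase levels are those of a mixed tissue. Of the 6 macrophage markers 1 passed the 2-fold rule, Cx3cr1, higher in heart 2, where 0.279% of all genes were. It held 73 and 255 counts, a log2 ratio of 1.75 (1.38 to 2.16). Lymphocyte markers summed to 0.78 and 2.07 TPM, with 0 of 5 detected, and Schwann and neuronal markers to 3.54 and 2.69 TPM, with 1 of 6 detected. Erythroid markers summed to 13381 TPM in heart 1 and 6207 TPM in heart 2. Of the 4 with 50 counts, 4 were 2-fold or more higher in heart 1, where 1.00% of all genes were. Atrial markers summed to 1232 and 1085 TPM. The libraries held 41846508 and 42481559 expected counts.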

How the data were processed

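Total RNA of 2 hearts was sequenced from 300 ng each, after ribosomal RNA reduction and with ERCC spike-ins, per the labels. The authors deposited expected counts, TPM and FPKM for genes and transcripts, with each transcript's percent of its gene, from a first quantification on mm10 with GENCODE M21, per the sample notes. The authors also deposited estimated counts and TPM of transcripts from a second quantification, which were summed here over each gene. Their columns are laid out as by RSEM and by kallisto, and the sources used here name no tool. The libraries held 41846508 and 42481559 expected counts, and a count of 0 allows up to 3 counts, 0.0717 and 0.0706 CPM.

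TMM factors (edgeR 4.0.16) and, as an alternative, DESeq2 1.42.0 size factors were computed in R 4.3.3 on rounded expected counts without spike-ins. Log2 ratios used a prior count of 1 and were tested on simulated data with known fold changes. Proteins were translated from GENCODE M21 transcripts, aligned in pairs with Biopython 1.88 and together with MAFFT 7.526, and the window of 30 codons with most residues shared by all was taken. Amino acid sequences are not printed. All members are named, from each pathway list the 3 genes of highest mean TPM and any past the 2-fold rule, and from each cell type list the 3 of highest mean TPM, by name or within their summed level. Other genes (Cx3cr1, which passed the 2-fold rule, Cenpo and the antisense genes) were chosen after their values were seen. A pathway gene within this rule is not reported here. The members and lists were chosen with earlier results of these data known. Alternatives were other thresholds of detection and fold, other units and scalings, other count filters, the second quantification, each library alone and, added after seeing the data, complete coding transcripts only.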

Additional observations from a re-analysis of the deposited data

How the results depend on the processing

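The share of the family's TPM held by Adcy6, 63.4%, moved beyond the spread of the hearts to 58.3% in the second quantification and 52.9% on expected counts. Under alternatives chosen after seeing the data it was 43.4% and 52.2% on complete coding transcripts in the first and second quantification, and 52.6% on expected counts per kb. Adcy6 held the largest share under each of these. The shares of Adcy5 and Adcy9, 17.3% and 8.20%, moved to 28.1% and 13.4% on complete coding transcripts in the first quantification. In the second they were 23.0% and 11.5% on these transcripts. The ratio of Adcy6 to Adcy5, 3.67, was 2.51 in the second quantification, 1.54 and 2.27 on complete coding transcripts in the first and second, 1.93 on expected counts, 2.24 per kb, and 1.01 and 1.77 for Adcy6-201 over Adcy5-201, all chosen after seeing the data; the differing transcripts counted and their lengths are what these alternatives change. Without any count filter 1 member, Adcy10, passed 2-fold, from 7 and 1 counts, and 0 did under the other fold thresholds, count filters and scalings run. Leaving out either heart gave a share of 63.2% to 63.6%, a ratio of 3.59 to 3.76 and 6 detected members. The number detected ran from 4 at 5 TPM to 7 at 0.5 TPM, and that of pathway genes from 56 to 66 beside 62. Of 50 alternative log2 ratios of members, 48 lay within their counting intervals; the others were Adcy5 at 0.22 and Adcy6 at 0.24 with spike-in scaling. The sign turned for Adcy9 alone, between -0.01 and 0.06. Rescaled over nuclear protein-coding genes, TPM of each member was higher, as with 192 for Adcy6. No paired analysis was possible because the labels give 1 group. Depth limits Adcy2 and Adcy10, with fewer than 50 counts, and the split of Adcy8 over transcripts.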
